A study of Rattus norvegicus with 20 samples.

Results

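Interferon-induced genes are the transcripts that cells switch on after an interferon binds its receptor. A list of 57 gene symbols was matched by name to an Illumina rat bead array, on which each gene is measured by the mean brightness of many beads. The array's table writes symbols in capitals (CXCL11, IFNGR2, EIF2AK2, MX1), which are given here in the usual form for rat genes. The match gave 49 rows for 48 of the symbols, Ifit1 having 2 rows. A row was kept if its deposited detection p, which compares its signal with negative controls, was under 0.01 on at least 8 of the 20 arrays, which left 45 members among the 10488 genes tested. The members fall into 23 type I antiviral genes, 12 gamma-type genes and 10 receptor and signalling genes. Of the kept rows, 40 were detected on all 20 arrays, and the other members were Ifit2 (19 arrays), Cxcl10 (16), Ifnar1 (13), Cxcl11 (12) and Irf8 (12). The rows not kept were those of Isg15 (listed under its older symbol G1p2, detected on 0 of 20 arrays), Stat2 (0 arrays), Irf2 (3 arrays) and the second Ifit1 row (2 silica arrays and 0 air arrays). Oas1, Oasl1, Ifitm2, Ifih1, Usp18, Rsad2 and Pml matched no row by name and were not analysed here, while Isg15 and Ifi27 were matched through the symbols G1p2 and Ifi27l. Stat2 was left out by its deposited detection p (0.05 at the lowest) and not by a dim signal: its log2 intensity of 5.74 to 6.24 in silica and 5.17 to 6.21 in air reached that of kept members such as Cxcl11. It is 1 of 606 genes of the table whose detection p was irregular on some array, and none of the 45 kept members is among them. Irregular means not a whole multiple of 1/825, for the 825 negative controls inferred, or not following the order of the intensities. Fitted without the filter, Stat2 had a log2 difference, silica minus air, of 0.18 ± 0.12 (SE; adjusted p = 0.443).

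Type I interferons, the alpha and beta forms, signal through Jak1 and Tyk2 to a complex that includes Stat2 and Irf9. That complex binds a DNA motif called the interferon-stimulated response element (ISRE) and drives genes that block viruses, such as the Mx, Oas and Ifit families. Interferon gamma, made chiefly by T cells and natural killer (NK) cells, signals through Jak1 and Jak2 and acts on promoters through a motif called the gamma-activated site (GAS). Its targets include chemokines that attract T cells carrying Cxcr3, GTPases active against microbes inside cells, and the machinery that presents peptides on class I molecules. Many genes answer to both kinds of interferon, so the classes are a guide and not a strict division. Inhaled crystalline silica, a mineral dust, is taken up by lung macrophages and causes inflammation of the lung.

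The lungs came from male CDF Fisher 344 rats aged 3 months, with 1 array per rat. In the silica group 8 rats inhaled crystalline silica at 15 mg/m3 for 6 hours a day on 5 days, and in the air group 12 control rats breathed air. Tissue was taken 16 hours after the last silica exposure, and RNA was from lung tissue, in which fewer cells of a type and less RNA per cell cannot be told apart. The silica rats carry the identifiers 81 to 88, and the air rats carry 89 to 92, 105 to 108 and 137 to 140. The labels do not say what these runs of identifiers stand for, so the silica rats were compared with all 12 air rats and with each run of 4.

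The arrays detected between 9434 and 10840 genes, with the fewest in air rat 139, silica rat 86 (9480) and air rat 106 (9655). Lung markers such as the surfactant gene Sftpc and the club cell gene Scgb1a1 were detected on all 20 arrays. Among the silica rats, rat 82 stood apart for the interferon-induced genes: it had the highest value of the 8 silica arrays for 27 of the 45 members (60.0%), against 10.2% of all genes tested. Results are therefore also given without rat 82.

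The promoters of the members that the results turn on are shown first, so that the interferon motifs they hold can be seen beside the values. RefSeq promoter windows of the rat assembly GRCr8, running from 250 bases before to 50 bases after a gene's start, were searched on both strands for an ISRE (GAAANNGAAA) and for a GAS (TTCNNNGAA, which reads the same on both strands). Adjoining motifs can share bases. The sequences run 5′ to 3′ on the gene's own strand, and capitals mark the motif letters, which appear as their reverse complement (TTTCNNTTTC) where the ISRE lies on the other strand.
Cxcl9: caagaacatgTTCTCTGAAgacattctc
Cxcl11: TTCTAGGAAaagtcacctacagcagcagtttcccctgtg
Irf8: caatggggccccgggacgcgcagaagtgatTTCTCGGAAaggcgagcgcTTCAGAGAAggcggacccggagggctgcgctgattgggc
Ifi47: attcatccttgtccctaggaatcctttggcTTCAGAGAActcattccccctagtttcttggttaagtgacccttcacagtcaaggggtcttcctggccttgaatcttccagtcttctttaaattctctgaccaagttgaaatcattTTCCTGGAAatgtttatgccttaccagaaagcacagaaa
Irf1: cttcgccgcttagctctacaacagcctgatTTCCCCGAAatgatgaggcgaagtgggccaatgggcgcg
Igtp: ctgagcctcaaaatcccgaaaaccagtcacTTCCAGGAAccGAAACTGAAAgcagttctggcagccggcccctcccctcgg
Gbp2: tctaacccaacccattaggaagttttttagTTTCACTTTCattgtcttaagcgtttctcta
Tap1: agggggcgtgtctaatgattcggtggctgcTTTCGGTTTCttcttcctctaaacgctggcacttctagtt
Eif2ak2: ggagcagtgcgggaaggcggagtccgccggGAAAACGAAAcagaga
Lgals3bp: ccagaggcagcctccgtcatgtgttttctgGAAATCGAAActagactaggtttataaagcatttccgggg
Ifitm3: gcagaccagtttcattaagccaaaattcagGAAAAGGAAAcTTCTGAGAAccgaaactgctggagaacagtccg
Irf7: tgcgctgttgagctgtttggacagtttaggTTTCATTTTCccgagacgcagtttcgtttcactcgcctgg
The stretches lie at chr14:16007188-16007215 (Cxcl9, plus strand), chr14:15973478-15973516 (Cxcl11, plus), chr19:65699074-65699161 (Irf8, plus) and chr10:33798502-33798686 (Ifi47, plus). Those of Irf1, Igtp and Gbp2 lie at chr10:38417763-38417831, chr10:42874903-42874983 and chr2:234005666-234005726, all on the plus strand. The Tap1 stretch is chr20:4668625-4668694 (minus), that of Eif2ak2 chr6:21941108-21941153 (plus) and that of Lgals3bp chr10:104127859-104127928 (minus). Ifitm3 and Irf7 are on the minus strand at chr1:205541759-205541832 and chr1:205800053-205800122. All of these stretches lie before the start of transcription except that of Cxcl9, whose GAS begins 33 bases into the transcript.

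A window was found for 37 of the 45 members, and the windows without a match to either motif say nothing of the factors that bind elsewhere. An ISRE lay in 11 of 16 type I antiviral windows (68.8%), in 7 of 12 gamma-type windows (58.3%) and in 1 of 9 receptor and signalling windows (11.1%), against 3.92% of all 33469 windows. A GAS lay in 4 of 16 type I windows (25%), in 6 of 12 gamma-type windows (50.0%) and in 1 of 9 receptor and signalling windows, against 8.87% of all windows. Both shares were above the background in the antiviral and gamma-type windows, a description without a test.

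Most interferon-induced genes did not pass the test between silica and air lungs. Of the 45 members, 8 rose (17.8%), 1 fell and 36 did not pass an adjusted p of 0.05 in limma, while 11.7% of all genes tested were higher and 12.7% lower in silica lungs by the same test. The share changed in either direction, 20.0% of members against 24.5% of all genes, was not above the background. The members that rose were the chemokines Cxcl11 and Cxcl9, the transcription factors Irf8 and Irf5, the receptor chain Ifngr2, the kinase gene Eif2ak2, the GTPase gene Ifi47 and the secreted protein gene Lgals3bp. Ifitm3 fell. The median log2 difference, silica minus air, was 0.04 over the type I antiviral members, 0.14 over the gamma-type members and 0.08 over the receptor and signalling members, beside -0.02 over all genes tested. With array medians aligned in place of quantile normalization the type I median was -0.01 and the gamma-type median 0.12. Over the members detected on all 20 arrays the type I median was 0.03 (22 genes) and the gamma-type median 0.05 (9 genes). With the background estimated from all rows they were 0.02 and 0.05.

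**Figure D1:**
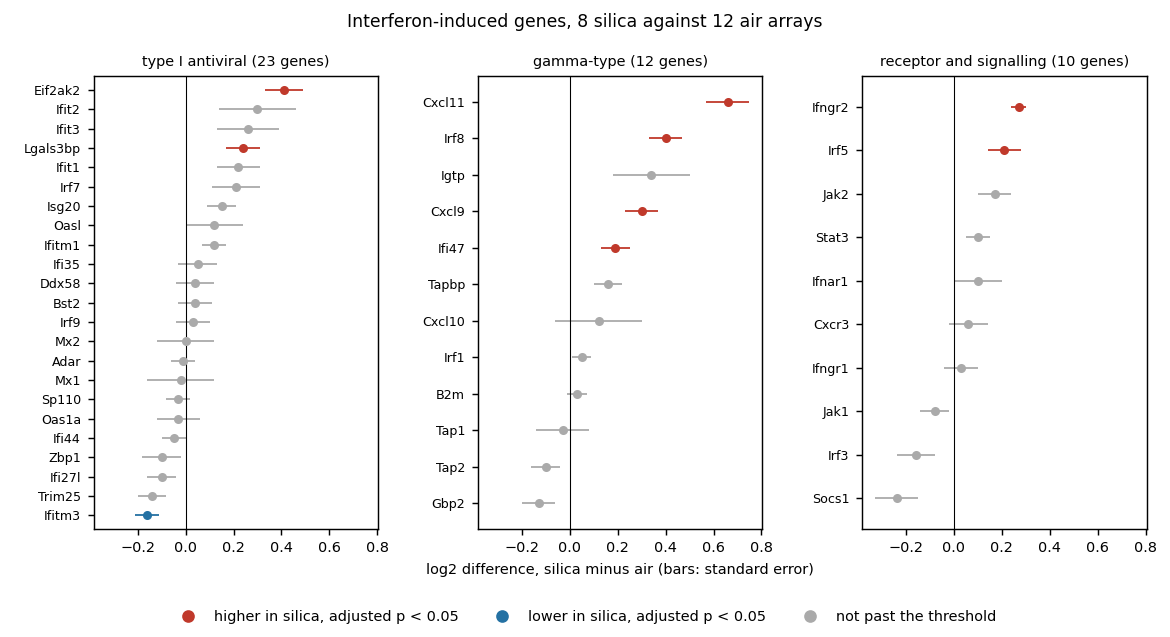
Log2 difference, silica minus air, for the 45 interferon-induced genes (points; bars are standard errors; 8 silica and 12 air arrays), by class. Red points rose, the blue point fell, and grey points did not pass. In the gamma-type class 4 of 12 members rose, against 2 of 23 type I antiviral members and 11.7% of all genes tested. Of these 4, Cxcl11 and Irf8 met the detection minimum only with the silica arrays counted. Cxcl11 lies farthest to the right at 0.66.

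Among the 23 type I antiviral members, 2 rose, 1 fell and 20 did not pass. Eif2ak2 encodes PKR, the kinase that halts protein synthesis on sensing double-stranded RNA, and its ISRE lies just before the gene's start. Its log2 intensity was 6.28 to 6.56 (median 6.40) on the silica arrays and 5.68 to 6.30 (median 6.04) on the air arrays. Thus 5 of the 8 silica rats were above every air rat, and the lowest silica rats overlapped with the highest air rats. The log2 difference was 0.41 ± 0.08 (SE), a 1.33-fold rise (adjusted p = 0.000786). Its size depended on the background correction and was 0.18 in the authors' deposited log2 values. Lgals3bp encodes a secreted glycoprotein that binds galectin-3. Its values ran from 9.47 to 9.95 (median 9.67) in silica and from 9.18 to 9.65 (median 9.44) in air, so that 4 silica rats were above every air rat and the others overlapped with the upper air rats. The rise was 0.24 ± 0.07 (adjusted p = 0.0149).

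Ifitm3, a membrane protein that blocks virus entry, was the member that fell. Silica arrays ran from 12.31 to 12.75 (median 12.51) and air arrays from 12.56 to 12.84 (median 12.68). Below every air rat were 5 silica rats, while rat 82 was the highest silica rat. The log2 difference was -0.16 ± 0.05 (adjusted p = 0.0212), and it did not pass without silica rat 83 (-0.13, adjusted p = 0.0585). Signal from the near-identical Ifitm paralogs was not tested. Its neighbour in the family, Ifitm1, had a log2 difference of 0.12 ± 0.05 (adjusted p = 0.11).

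The antiviral genes most often used to read a type I interferon response did not pass the test. Mx1 and Mx2 encode GTPases that block virus replication. Mx1 ranged from 8.90 to 10.17 (median 9.31) in silica and from 8.99 to 9.96 (median 9.44) in air, a log2 difference of -0.02 ± 0.14 (adjusted p = 0.946). Mx2 ranged from 9.0 to 10.10 (median 9.28) in silica and from 8.96 to 9.81 (median 9.36) in air, a difference of 0.00 ± 0.12 (adjusted p = 0.995). The groups overlapped for both genes, with rat 82 above every air rat, and cross-signal between these close paralogs was not tested. Oas1a, a sensor that activates RNase L, ranged from 7.83 to 8.76 (median 8.31) in silica and from 8.09 to 8.62 (median 8.28) in air, a difference of -0.03 ± 0.09 (adjusted p = 0.853). The related Oasl differed by 0.12 ± 0.12 (adjusted p = 0.531).

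Irf7, the transcription factor that amplifies type I interferon production, ranged from 9.38 to 10.20 (median 9.55) in silica and from 9.06 to 9.80 (median 9.43) in air. The difference of 0.21 ± 0.10 did not pass (adjusted p = 0.128), and 1 silica rat, rat 82, was above every air rat. The Ifit genes encode proteins that bind viral RNA. Ifit1 ranged from 8.08 to 8.68 (median 8.27) in silica and from 7.82 to 8.57 (median 8.07) in air, a difference of 0.22 ± 0.09 (adjusted p = 0.086). Ifit3 ranged from 6.74 to 7.88 (median 7.43) in silica and from 6.60 to 7.59 (median 7.11) in air, a difference of 0.26 ± 0.13 (adjusted p = 0.165). The groups overlapped for both, with 2 silica rats above every air rat in each. Ifit1 passed without air rat 108 (adjusted p = 0.0264) and Ifit3 without silica rat 87 (adjusted p = 0.0478). Ifit2 ran from 6.17 to 6.74 (median 6.36) in silica and from 5.47 to 6.79 (median 6.07) in air, and its difference of 0.30 ± 0.16 (adjusted p = 0.179) depended on the air rats used. Its air means were 6.38 in rats 89 to 92, 6.23 in rats 105 to 108 and 5.62 in rats 137 to 140, against 6.37 in silica. The difference accordingly passed against rats 137 to 140 alone (0.75 ± 0.13, adjusted p = 0.000816) and was near 0 against rats 89 to 92.

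The remaining type I members lay between -0.14 for Trim25, a ubiquitin ligase that activates the RNA sensor Rig-I, and 0.15 for Isg20, an exonuclease that degrades viral RNA (adjusted p = 0.0501, just above the threshold). They include Ifi27 (-0.10 ± 0.06), Zbp1 (-0.10 ± 0.08), Ifi44 (-0.05 ± 0.05), Bst2 (0.04 ± 0.07), the Rig-I gene Ddx58 (0.04 ± 0.08), Irf9 (0.03 ± 0.07), Ifi35 (0.05 ± 0.08), Sp110 (-0.03 ± 0.05) and the RNA editing enzyme gene Adar (-0.01 ± 0.05). None of these passed, and for each of them the groups overlapped. Over the whole class 14 of 23 differences were above 0.

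Among the 12 gamma-type members, 4 rose and 8 did not pass. The share called was 33.3%, against 24.5% of all genes tested in either direction and 11.7% higher in silica. That share includes Cxcl11 and Irf8, which met the detection minimum only with the silica arrays counted. Cxcl11, a chemokine that attracts T cells and NK cells through Cxcr3, ranged from 5.74 to 6.00 (median 5.83) in silica and from 4.75 to 5.58 (median 5.23) in air. Every silica rat was above every air rat, and the gene was detected on 8 of 8 silica arrays and 4 of 12 air arrays. It therefore met the minimum of 8 arrays through the silica arrays, where it was high, and its separation and call are not support for the class. The log2 difference was 0.66 ± 0.09 (adjusted p = 8.03e-06; 1.25e-05 without the filter). This was the largest among the 45 members with the background correction used, but its size rested on that correction: it was 0.38 with an offset of 50, 0.36 without background correction, 0.21 in the authors' deposited log2 values and 0.07 with the background estimated from all rows. Ifngr2 kept 0.25 to 0.30 in the same 4 alternatives. Without overlap between the groups were 2 members, Cxcl11 and Ifngr2, both higher in silica, where 1.83% of all genes tested did so, and of these Ifngr2 was detected on all 20 arrays. Cxcl9, a relative of Cxcl11, ranged from 9.27 to 9.54 (median 9.46) in silica and from 8.82 to 9.43 (median 9.10) in air. For Cxcl9, 5 silica rats were above every air rat and 3 were within the upper air range. Its rise was 0.30 ± 0.07 (adjusted p = 0.00156).

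Cxcl10, the third chemokine that binds Cxcr3, did not pass. It was detected on 7 of 8 silica and 9 of 12 air arrays and ranged from 5.42 to 6.83 (median 5.75) in silica and from 4.94 to 6.36 (median 5.85) in air. The groups overlapped, the SD being 0.45 over the silica arrays and 0.43 over the air arrays, and the log2 difference was 0.12 ± 0.18 (adjusted p = 0.659). The receptor gene Cxcr3 differed by 0.06 ± 0.08 (adjusted p = 0.649).

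Irf8 encodes a transcription factor of macrophages and dendritic cells. It ranged from 5.48 to 5.95 (median 5.72) in silica, where it was detected on 7 of 8 arrays, and from 5.10 to 5.50 (median 5.31) in air, where it was detected on 5 of 12. All silica rats but rat 86 were above every air rat. Like Cxcl11, it met the minimum of 8 arrays only with the silica arrays counted, where it was high. Its separation and call are therefore not support for the class. The rise was 0.40 ± 0.07 (adjusted p = 0.000394), and it was 0.12 in the authors' deposited log2 values. Ifi47, a GTPase induced by interferon gamma, ranged from 10.17 to 10.52 (median 10.28) in silica and from 9.82 to 10.39 (median 10.11) in air. All 8 silica rats were above the air mean and 2 were above every air rat. Its rise was 0.19 ± 0.06 (adjusted p = 0.0277), which did not pass without rat 81 (adjusted p = 0.0563) or rat 82 (adjusted p = 0.0667). Igtp, a GTPase of the same family, ranged from 6.44 to 7.29 (median 7.05) in silica and from 6.05 to 7.24 (median 6.76) in air, and its difference of 0.34 ± 0.16 did not pass (adjusted p = 0.13). As with Ifit2, its air mean was higher in rats 89 to 92 (6.99) than in rats 105 to 108 (6.71) and 137 to 140 (6.23), beside 6.98 in silica.

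Members that load peptides onto class I molecules did not pass. Tap1 and Tap2 encode the peptide transporter. Tap1 ranged from 8.09 to 8.64 (median 8.45) in silica and from 7.93 to 8.84 (median 8.46) in air, a difference of -0.03 ± 0.11 (adjusted p = 0.858). Tap2 ranged from 9.53 to 9.94 (median 9.79) in silica and from 9.68 to 10.07 (median 9.84) in air, a difference of -0.10 ± 0.06 (adjusted p = 0.221). The groups overlapped for both, and the median was slightly lower in silica. B2m, the light chain of class I molecules, differed by 0.03 ± 0.04 (14.32 to 14.53, median 14.44, in silica; 14.27 to 14.53, median 14.40, in air; adjusted p = 0.558). Tapbp, which links the transporter to class I, differed by 0.16 ± 0.06 (adjusted p = 0.054).

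Gbp2, a guanylate-binding protein commonly used to read an interferon gamma response, ranged from 10.13 to 10.69 (median 10.35) in silica and from 10.19 to 10.66 (median 10.53) in air, a difference of -0.13 ± 0.07 (adjusted p = 0.186). Irf1, the first transcription factor induced by gamma signalling, ranged from 11.71 to 12.02 (median 11.89) in silica and from 11.67 to 11.98 (median 11.86) in air, a difference of 0.05 ± 0.04 (adjusted p = 0.474). In both genes most silica values lay inside the air range. Over the whole class 9 of 12 differences were above 0.

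**Figure D2:**
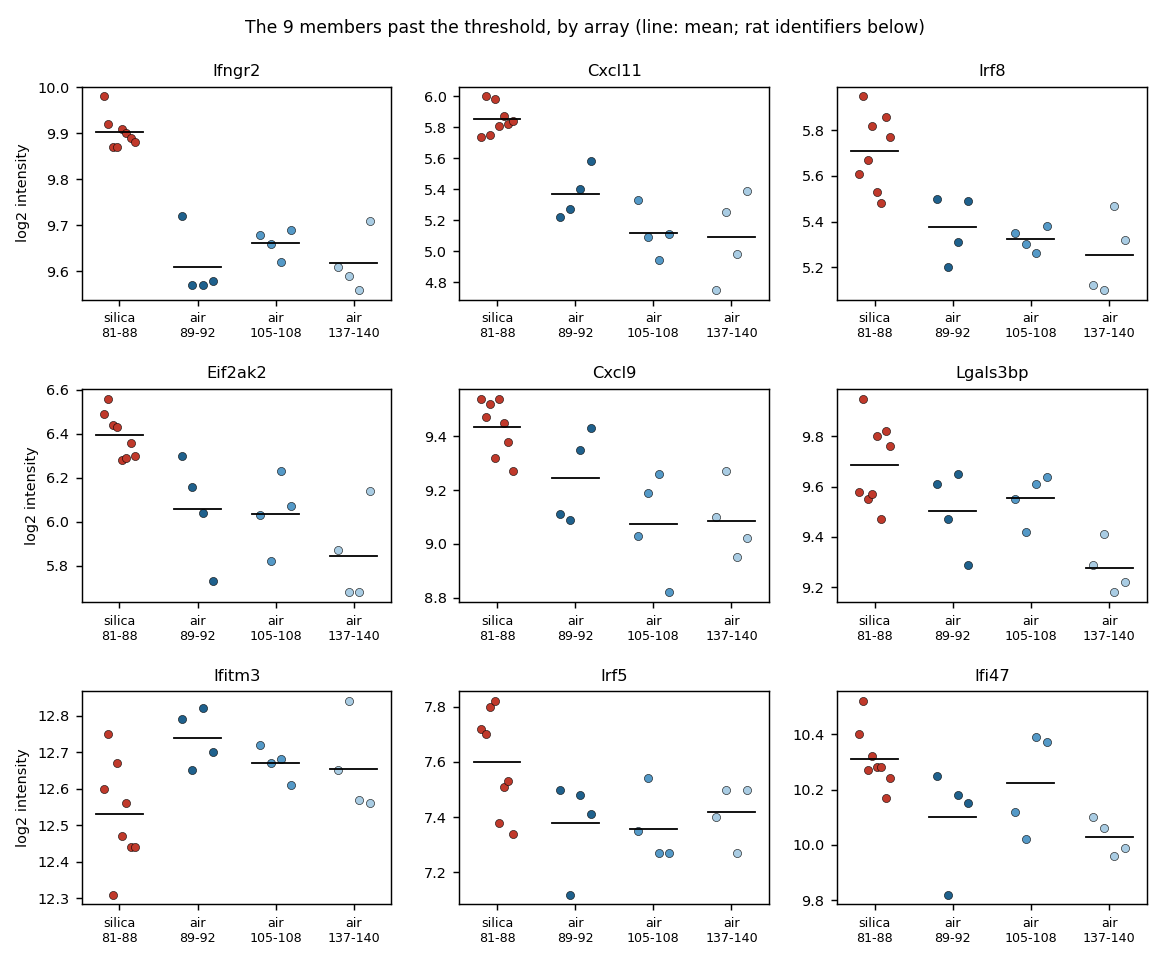
Log2 intensity of the 9 members that passed the test, 1 point per rat, with the silica rats (red) and the 3 runs of air rats (blues); lines are means, and each panel has its own axis. Silica and air do not overlap for Ifngr2 and Cxcl11, and the air runs differ from each other most visibly for Lgals3bp.

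The motif classes, compared after the values were known and without a test, split the gamma-type members. The 5 whose windows hold a GAS and no ISRE (Cxcl9, Cxcl11, Ifi47, Irf8 and Irf1) had a median difference of 0.30, and 4 of them rose. Of these 4, Cxcl11 and Irf8 met the detection minimum only with the silica arrays counted, where they were high. Neither their rises nor the median that includes them is therefore support for the split. Cxcl9, Ifi47 and Irf1 differed by 0.30, 0.19 and 0.05. The GAS of Cxcl11 begins at the first base of its window, 250 bases before the start, so its motif class depends on where the window begins. The 6 with an ISRE and no GAS (Cxcl10, Gbp2, Tap1, Tap2, Tapbp and B2m) had a median of 0.00, and 0 rose. Igtp has both motifs. Among all 6 members with a GAS only, the same 4 rose, while Irf1 and the type I member Irf9 (0.03) did not pass. Among all 5 members with both motifs 0 rose and 1 fell (Ifitm3). Over all genes tested that have a window, 14.4% of the 341 with a GAS only, 9.66% of the 145 with an ISRE only and 12.6% of the 4686 with neither were higher in silica, as were 15.4% of the 26 with both. The split is a description of 11 genes. Among all 14 members with an ISRE only, 2 rose (Eif2ak2 and Lgals3bp), and 2 of 12 members with neither motif rose (Ifngr2 and Irf5).

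Of the 10 receptor and signalling members, 2 rose and 8 did not pass. The share called was 20.0%, against 24.5% of all genes tested in either direction and 11.7% higher in silica. Ifngr2, the signalling chain of the interferon gamma receptor, ranged from 9.87 to 9.98 (median 9.89) in silica and from 9.56 to 9.72 (median 9.62) in air. The groups did not overlap, and the SD within them was small (0.03 over the 8 silica arrays and 0.06 over the 12 air arrays). The rise was 0.27 ± 0.03, or 1.21-fold, with an adjusted p of 1.12e-06, the smallest among the members. Its partner Ifngr1, the ligand-binding chain, ranged from 10.80 to 11.16 (median 11) in silica and from 10.67 to 11.24 (median 10.95) in air. The silica values lay within the air range, a difference of 0.03 ± 0.07 (adjusted p = 0.743). Ifnar1, a chain of the type I receptor detected on 7 silica and 6 air arrays, ranged from 5.04 to 5.77 (median 5.47) in silica and from 5.10 to 5.68 (median 5.29) in air, a difference of 0.10 ± 0.10 (adjusted p = 0.482).

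Irf5, a transcription factor of macrophages that acts downstream of Toll-like receptors, ranged from 7.34 to 7.82 (median 7.62) in silica and from 7.12 to 7.54 (median 7.41) in air. The groups overlapped in part: 4 silica rats (81 to 84) were above every air rat and 4 were within the air range. The rise was 0.21 ± 0.07 (adjusted p = 0.0273), and it did not pass when any 1 of rats 81 to 84 was left out (0.18 at the lowest, adjusted p = 0.0685 at the highest). Jak2 (0.17 ± 0.07, adjusted p = 0.0695), Stat3 (0.10 ± 0.05), Jak1 (-0.08 ± 0.06) and Irf3 (-0.16 ± 0.08) did not pass. Socs1, which shuts off Jak signalling, had the lowest difference among the members (-0.24 ± 0.09, adjusted p = 0.0553).

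Most of these calls did not pass against every run of air rats, and each run of 4 also leaves fewer arrays to the test. Against rats 89 to 92, whose identifiers follow those of the silica rats, 2 members passed, both higher (4.44% of members, against 6.18% of all genes tested in either direction and 3.76% higher in silica). These were Cxcl11 (0.49 ± 0.09, adjusted p = 0.00397) and Ifngr2 (0.29 ± 0.05, adjusted p = 0.00123). The other 7 called members kept their direction there, among them Eif2ak2 (0.34 ± 0.10, adjusted p = 0.0589), Irf8 (0.34 ± 0.10, adjusted p = 0.0688) and Cxcl9 (0.19 ± 0.07, adjusted p = 0.152). Against rats 105 to 108, 5 rose and Socs1 fell (13.3% of members), where 17.4% of all genes passed (916 of 10488 higher and 904 lower). Against rats 137 to 140, 11 rose and Irf3 fell (26.7% of members), where 20.7% of all genes passed (1131 of 10488 higher and 1043 lower). Cxcl11 and Ifngr2 rose against every run. Eif2ak2, Cxcl9 and Irf8 rose against both of the later runs. Lgals3bp and Ifi47 passed only against rats 137 to 140. Irf5 (0.22, 0.24 and 0.18 against the 3 runs in turn) and Ifitm3 (-0.21, -0.14 and -0.13) passed against none, with the same direction in each. Medians against the 3 runs were 0.06, -0.03 and 0.12 for type I antiviral members and 0.08, 0.06 and 0.23 for gamma-type members.

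Between the 3 runs of air rats themselves, 0 of the 45 members differed by limma's F-test after adjustment (0.162% of all genes did). At an unadjusted p under 0.05, 9 members differed (20.0%, against 11.7% of all genes). These were Ifit2, Ifit3, Irf9, Lgals3bp, Sp110, Zbp1, Igtp, Cxcr3 and Irf3, and the smallest adjusted p was 0.142, for Irf3.

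Members of the antiviral and gamma-type classes varied together from rat to rat within a group. After each group's mean was removed, the mean correlation between pairs of type I antiviral members over the 20 arrays was 0.31, and it was 0.25 between gamma-type members and 0.05 between receptor and signalling members, beside 0.00 between all pairs of the 10488 genes. Over the 12 air arrays alone the values were 0.28, 0.26 and 0.06. Over the 8 silica arrays they were 0.35 and 0.24 for the first 2 classes, and 0.09 and 0.08 without rat 82. The points share arrays, and so share each array's depth and quality, and the correlations are given as descriptions. Rat-to-rat differences in the antiviral genes were thus present in rats that breathed air. Air rat 107 or 108, picked after the values were seen, had the highest air value for 12 of 23 type I members. Each was highest for 26.1% of these members, against 6.07% (rat 107) and 9.44% (rat 108) of all genes tested. Air rat 139, the array with the fewest genes detected, had the lowest air value for 8 (34.8%, against 13.3% of all genes tested).

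**Figure D3:**
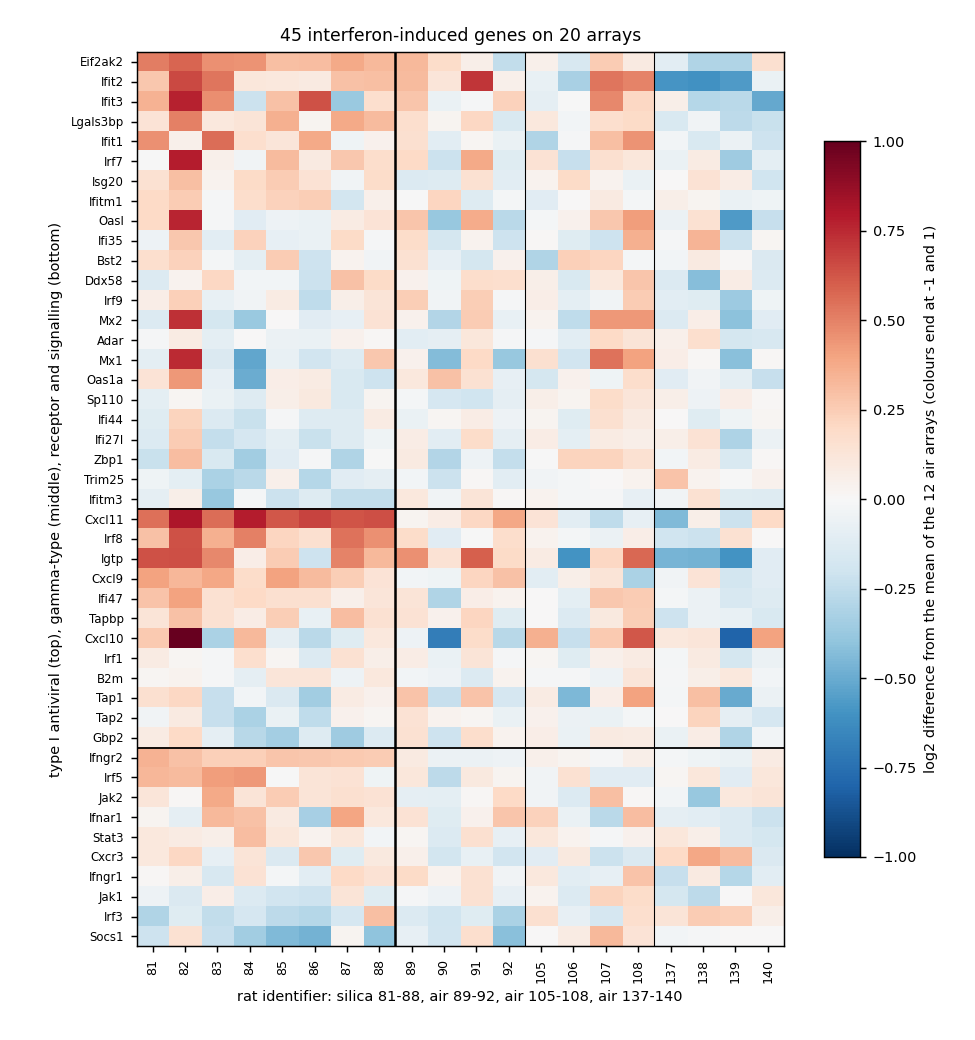
Log2 difference of each member (rows) from the mean of the 12 air arrays on each of the 20 arrays (columns, rat identifiers), with colours ending at -1 and 1; thick and thin vertical lines separate silica and the runs of air rats. The column of silica rat 82 is red for most antiviral members, and the row of Cxcl11 is red in all 8 silica rats.

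Rat 82 was the highest silica rat for most antiviral members. It had the highest silica value for 18 of 23 type I members (78.3%) and 8 of 12 gamma-type members (66.7%), but for 1 of 10 receptor and signalling members. Its Mx1 (10.17), Mx2 (10.10), Irf7 (10.20) and Oasl (9.48) were above every other rat of either group. Its median difference from the air mean was 0.28 over type I members and 0.32 over gamma-type members, while the other 7 silica rats lay between -0.07 and 0.08 for type I members and between -0.10 and 0.21 for gamma-type members. The air rats spanned -0.18 to 0.17 and -0.19 to 0.18 for the same classes. Its array detected 10566 genes, within the range of the others.

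Without rat 82, 6 members rose and 3 fell (20.0% of members), where 23.0% of all genes tested passed (1146 of 10488 higher and 1262 lower). Eif2ak2 (0.39 ± 0.09), Lgals3bp (0.21 ± 0.07), Cxcl11 (0.64 ± 0.09), Cxcl9 (0.30 ± 0.07), Irf8 (0.36 ± 0.07) and Ifngr2 (0.27 ± 0.03) rose. Ifitm3 (-0.19 ± 0.05), Ifi27 (-0.15 ± 0.05, adjusted p = 0.0445) and Socs1 (-0.29 ± 0.09, adjusted p = 0.0164) fell. Ifi47 (0.16 ± 0.06, adjusted p = 0.0667) and Irf5 (0.20 ± 0.07, adjusted p = 0.0541) no longer passed. The class medians became 0.01 for type I and 0.10 for gamma-type members.

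The gamma-type median, as a difference from the air mean, exceeded the type I median on most arrays of both groups. On 7 of 8 silica arrays the gamma-type median exceeded the type I median, by 0.11 at the middle of the 8 arrays (range -0.04 to 0.21), and rat 86 was the exception. On the air arrays the same difference ranged from -0.09 to 0.11 around a middle of 0.02 and was above 0 on 8 of 12. The ranges overlap, and the difference between the classes was not tested because their members were chosen with earlier results known. The gamma-type medians include Cxcl11 and Irf8, which met the detection minimum only with the silica arrays counted, where they were high. The arrays were not counted again without these genes, so the counts are not support for a difference between the classes. The classes lay closer over members detected on all 20 arrays, which leaves Cxcl10, Cxcl11 and Irf8 out of the gamma-type class. There the median difference, silica minus air, was 0.05 for gamma-type and 0.03 for type I members.

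**Figure D4:**
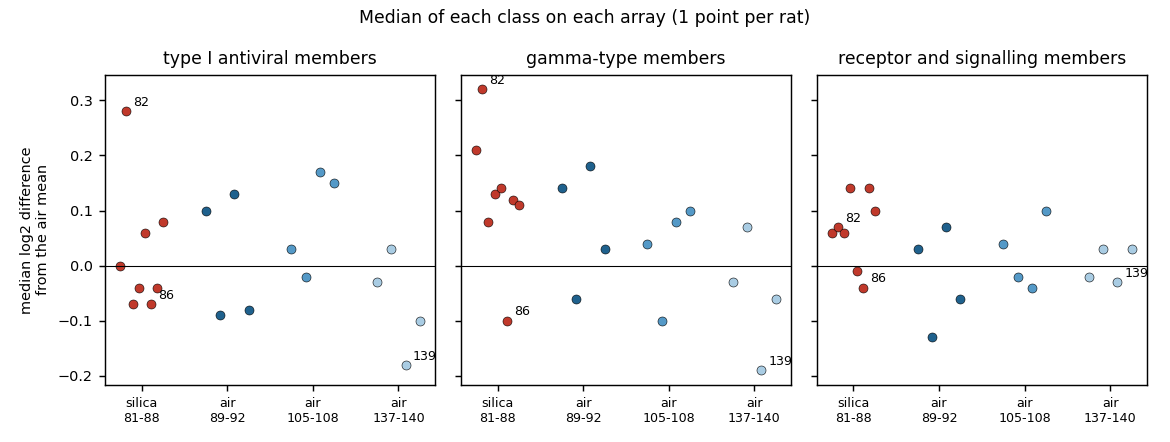
Median log2 difference from the air mean over each class of members, 1 point per rat (silica red, the 3 runs of air rats blue); rats 82, 86 and 139 are labelled. Rat 82 is highest for type I antiviral (0.28) and gamma-type members (0.32), and the silica and air points overlap in all 3 classes.

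The wider interferon pathway was read from lists of genes that are not members. Of 6 rows for interferon genes, Ifna1, Ifna4, Ifna11, Ifnb1 and Ifnk were detected on 0 of 20 arrays and Ifng on 2 silica arrays and 1 air array, so no interferon gene was tested. Among 8 other receptor and Jak-Stat genes, 1 rose and 3 fell, where 11.7% of all genes tested rose and 12.7% fell. Ptpn6, the phosphatase SHP-1, rose by 0.23 ± 0.06 (10.53 to 10.83 in silica, 10.18 to 10.65 in air; adjusted p = 0.00419). Stat4, which carries interleukin-12 signals in T cells and NK cells, had a log2 difference of -0.30 ± 0.05 (7.51 to 7.93 in silica, 7.84 to 8.15 in air, overlapping by little; adjusted p = 0.000328). Pias1 and Pias4, which restrain Stat proteins, also fell. Pias1 differed by -0.21 ± 0.06 (9.12 to 9.49 in silica, 9.34 to 9.71 in air; adjusted p = 0.0101) and Pias4 by -0.22 ± 0.07 (9.04 to 9.58 in silica, 9.24 to 9.74 in air; adjusted p = 0.0172). Against rats 89 to 92 none of these 4 passed: the differences were 0.19 for Ptpn6 (adjusted p = 0.208), -0.22 for Stat4 (adjusted p = 0.106), -0.13 for Pias1 (adjusted p = 0.3) and -0.18 for Pias4 (adjusted p = 0.336).

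Of 7 nucleic acid sensing genes, 1 passed: Ikbke, a kinase that activates Irf3, rose by 0.31 ± 0.07 (8.36 to 8.82 in silica, 7.83 to 8.44 in air; adjusted p = 0.00347). Of 20 other antiviral effectors, 1 passed, Plscr1, a phospholipid scramblase (0.29 ± 0.05; 10.59 to 10.98 in silica, 10.27 to 10.64 in air; adjusted p = 0.000323). Of 18 genes of class I processing and gamma induction, 5 rose, where 11.7% of all genes tested rose. Ciita, the switch for class II genes, rose by 0.51 ± 0.10 (5.76 to 6.47 in silica, 5.35 to 6.11 in air; adjusted p = 0.000779). The proteasome genes Psmb8, Psmb10 and Psme2 and the tryptophanyl-tRNA synthetase gene Wars rose less. Psmb8 differed by 0.18 ± 0.05 (11.91 to 12.25 in silica, 11.71 to 12.14 in air; adjusted p = 0.00722) and Psmb10 by 0.18 ± 0.05 (11.36 to 11.58 in silica, 11.17 to 11.53 in air; adjusted p = 0.00783). Psme2 differed by 0.17 ± 0.06 (9.94 to 10.28 in silica, 9.75 to 10.19 in air; adjusted p = 0.0293) and Wars by 0.22 ± 0.05 (8.68 to 8.93 in silica, 8.38 to 8.80 in air; adjusted p = 0.00408). The third inducible proteasome subunit, Psmb9, differed by -0.01 ± 0.09 (10.01 to 10.82 in silica, 10.19 to 10.82 in air; adjusted p = 0.946). In all, 8 of these 53 genes rose and 3 fell, and their median difference was 0.00. The share changed in either direction was not above the 24.5% of all genes tested (11.7% higher and 12.7% lower). Against rats 89 to 92, 3 of the 53 passed, all higher, where 6.18% of all genes tested passed and 3.76% were higher. These 3 were Ikbke (0.44, adjusted p = 0.00367), Ciita (0.62, adjusted p = 0.0119) and Psmb10 (0.21, adjusted p = 0.0291). Plscr1 (0.21, adjusted p = 0.0795), Wars (0.24, adjusted p = 0.0562), Psmb8 (0.17, adjusted p = 0.198) and Psme2 (0.10, adjusted p = 0.54) did not pass there. Irgm, a GTPase gene of the gamma-induced list, was left out by a detection p of the same kind as that of Stat2. Its intensity was 8.27 to 8.75 in silica and 8.16 to 8.60 in air, a difference of 0.02 ± 0.07 without the filter (adjusted p = 0.936).

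**Figure D5:**
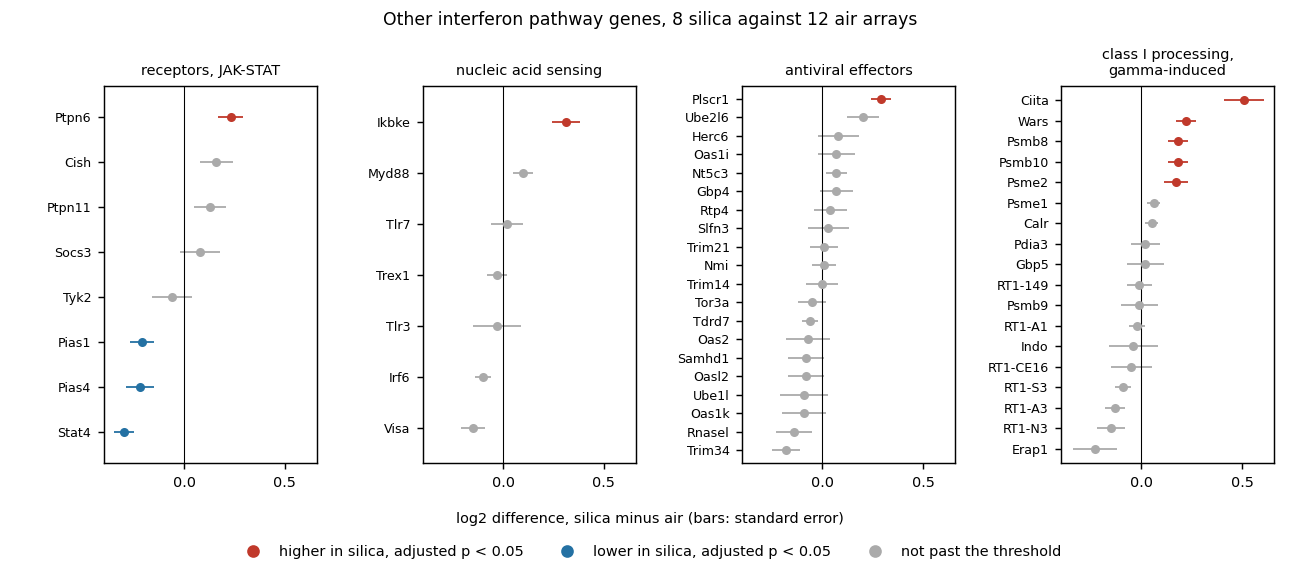
Log2 difference, silica minus air, for the 53 interferon pathway genes that are not members (points; bars are standard errors; 8 silica and 12 air arrays), in 4 groups; red rose, blue fell and grey did not pass. Ciita lies farthest to the right at 0.51 and Stat4 farthest to the left at -0.30.

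Markers of cells that make or answer interferon moved with silica too. For scale, 11.7% of all genes tested rose and 12.7% fell by the same test, and 6.18% passed against rats 89 to 92. Of 18 tested markers of T cells and NK cells, the main sources of interferon gamma, 14 fell, 1 rose (Klrb1b) and 3 did not pass, with a median difference of -0.28, and the summed level of the list, on the linear intensity scale, was 12357 to 15230 in silica and 15355 to 18979 in air. Of 9 neutrophil markers 6 rose (median 0.37; summed level 2895 to 4222 in silica and 1827 to 2418 in air). Among these, Csf3r was detected on 6 silica and 2 air arrays and Il8rb on 8 silica and 6 air arrays. Both met the detection minimum only with the silica arrays counted, where they were high. Their rises are therefore not support for a rise of the list, whose median and summed level include them. Of 8 monocyte and macrophage markers 7 rose (median 0.43; 19622 to 21920 in silica and 10604 to 18507 in air). Summed levels of these 3 lists did not overlap between the groups, and a background for summed levels was not computed. Against rats 89 to 92 fewer passed: 4 T and NK cell markers fell and 0 rose (median -0.25), 4 neutrophil markers rose (median 0.36) and 4 monocyte and macrophage markers rose (median 0.40). Tbx21, Cd5 and Klrk1 of the T and NK cell list and Fpr1 and S100a9 of the neutrophil list were detected on 0 arrays. B cell markers fell for 2 of 4 tested, and for 0 against rats 89 to 92. Of 5 tested markers linked to plasmacytoid dendritic cells, the strongest makers of type I interferon, Irf8 rose and Tcf4 fell, and neither passed against rats 89 to 92. Irf8, detected on 7 silica and 5 air arrays, met the detection minimum only with the silica arrays counted. Pacsin1 and Runx2 of the same list were detected on 0 arrays and Spib on 1, and were not tested. Irf8 and Bst2 are also members, and Irf8 and Irf5 are expressed by macrophages. Of 12 tested rows of lung epithelial and endothelial markers, 4 rose and 3 fell. Both rows of Lamp3 (0.74 ± 0.11 and 0.34 ± 0.06), Sftpd (0.58 ± 0.09) and Napsa (0.25 ± 0.05), genes of alveolar type II cells, rose. The alveolar type I cell genes Ager (-0.20 ± 0.04) and Aqp5 (-0.21 ± 0.06) and the endothelial gene Cldn5 (-0.15 ± 0.05) fell. Against rats 89 to 92, 3 of these rows rose and 1 fell. The summed level of the lung list was 111855 to 122777 in silica and 110222 to 120506 in air. The part of these shifts in the rise of Cxcl9, Cxcl11, Irf8, Irf5 and Ifngr2 was not tested.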

How the data were processed

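Lung RNA of 20 rats was measured on Illumina bead arrays, 1 per rat. The deposited table holds a mean bead intensity per gene and array, deposited by the authors without normalization judging from its values; BeadStudio, lumi and limma are named in the submitters' processing notes without versions. The authors also deposited a detection p-value and a number of beads, a score of 40 to 43 at the array median. The authors' deposited log2 values, whose exact transformation is unknown, served as an alternative. A further 20 columns, the bead standard errors, were not used.

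Negative-control means and SDs were inferred per array from the detection p-values, and intensities were corrected by normexp (offset 16), quantile normalized and put on the log2 scale in limma 3.58.1 (R 4.3.3). The test, on genes detected (p under 0.01) in 8 or more arrays, was made with lmFit and eBayes with an intensity trend, and p-values were adjusted by Benjamini-Hochberg over 10488 genes. An offset keeps log2 differences of dim genes, such as Cxcl11 and Irf8, smaller than the change in RNA. The fit was tested on simulated data. The number of arrays limits the precision, and no label says whether rats shared a cage or exposure chamber.

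The members and lists were chosen with earlier results of these data known. Every kept member could be named. Full statistics were given for members that passed against all air rats, against rats 89 to 92 or between air runs, and for a list of widely used interferon genes, and of the pathway lists for genes that passed and for Ifng, Ifnb1, Psmb8 and Psmb9. Replicate numbers did not pair the samples: same-numbered silica and air arrays correlated between -0.23 and 0.19 in their deviations. Promoter sequences were RefSeq's for GRCr8. By the RefSeq table, 43 of the 45 kept symbols matched directly and 2 (Ddx58, Ifi27l) as synonyms. Without a window were Mx2, Ifit1, Ifit2, Ifitm1, Ddx58, Adar, Zbp1 and Jak1. 1 gene of the pathway lists is not reported here.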

Additional observations from a re-analysis of the deposited data

Results flagged for a closer look

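In 7 of the 45 members (15.6%, against 7.17% of all genes tested) the highest or lowest of the 8 silica arrays lay apart from the other 7 by Dixon's gap test, which by chance flags about 1 in 20 groups. Silica rat 82 was the high array in 4 of them: Ifi27 (13.39), Irf7 (10.20), Oasl (9.48) and Cxcl10 (6.83). The next highest silica values of these genes were 13.10, 9.73, 8.92 and 6.06. In the other 3, rat 81 was high for Ifngr2 (9.98), rat 88 for Irf3 (11.03) and rat 84 for Stat3 (9.09). The Ifngr2 call does not rest on rat 81, since all 8 silica rats were above every air rat.

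Outside the rows tested, the second Ifit1 row was detected on 2 silica arrays and 0 air arrays, and Ticam2, an adaptor of Toll-like receptor signalling, was likewise detected on 2 silica arrays and 0 air arrays.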

How the results depend on the processing

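Of 228 alternatives to the 8 main results, 215 stayed within 1.5 times the count or 1 SD of the median. That SD, over the silica arrays, was 0.12 for the type I and gamma-type medians, which were themselves 0.04 and 0.14. Staying within it therefore says little: the type I median ran from -0.03 to 0.12 and the gamma-type median from 0.05 to 0.23. With array medians aligned in place of quantiles, 3 members, 1388 genes and 5 other pathway genes passed, and 1 member passed against rats 89 to 92. With the identifier runs as a block the counts were 3, 768 and 3. Against rats 89 to 92 alone they were 2, 648 and 3. The receptor and signalling median was 0.15 against rats 137 to 140 alone. With genes detected on all 20 arrays, which drops Cxcl11, 1 member passed against rats 89 to 92. The replicate block, an unpaired design here, gave 8 members, 1542 genes and 11 pathway genes. Of the 9 calls, Cxcl11 passed in every alternative in which it was tested. Ifngr2 was lost only with array medians aligned, Irf8 only against rats 89 to 92, Eif2ak2 in 2 alternatives, Cxcl9 in 3, Lgals3bp in 4, Ifi47 and Ifitm3 in 7 each and Irf5 in 11 of 35. Leaving out each array gave 7 to 13 members, 2182 to 2763 genes, 10 to 13 pathway genes and medians of 0.01 to 0.07 (type I), 0.10 to 0.19 (gamma-type) and 0.06 to 0.09 (receptor and signalling). Leaving out the 3 arrays with the fewest genes, chosen after seeing the data, left 9 members. The background correction, its offset, the deposited log2 values, the intensity trend, array weights and no filter each left 8 to 13 members. The background correction, its offset and the deposited log2 values moved the log2 difference of dim members by over 1.5 times: Cxcl11 ranged down to 0.07, Eif2ak2 to 0.07, Irf8 to 0.04 and Irf5 to 0.11, each lowest with the background estimated from all rows. No called member changed sign. For the alternatives that moved a count, the cause was not tested. Dim genes limit the precision.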
